A study of Homo sapiens with 12 samples.

Results

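The genes described here encode the enzymes and transporters that carry glucose carbon through the cell, from uptake at the plasma membrane to the tricarboxylic acid (TCA) cycle. They were chosen by name from a list of 49 gene symbols, and each symbol was found once among the 60666 genes listed for Huh7 cells. The list holds 5 transporters, 19 glycolysis genes, 5 gluconeogenesis genes, 3 pentose phosphate genes, 3 pyruvate dehydrogenase subunits and 14 TCA cycle genes. The study measured mRNA in hepatocellular carcinoma (HCC) cells after FAM111B was silenced, and it also followed how such cells use glucose. Huh7, a human HCC line grown in high-glucose DMEM with serum, was represented by 3 control libraries (labelled NC) and 3 libraries labelled KD, from derivatives that stably carried a lentiviral short hairpin RNA against FAM111B (shFAM111B). Both groups are the same line, and transduced cells were selected in puromycin. The paper's methods name control sequences among the lentiviral constructs, but the labels do not state whether the sequenced controls carried one. The loss of FAM111B and the history of transduction and selection therefore cannot be told apart here. The paper lists a single hairpin sequence against FAM111B, so effects of that hairpin on other genes cannot be told apart from the loss of FAM111B. The Hep3B libraries of the series were not analysed here.

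Glycolysis splits glucose to pyruvate in the cytosol, and lactate dehydrogenase and the pyruvate dehydrogenase complex compete for that pyruvate, the former making lactate and the latter feeding acetyl-CoA to the mitochondrial TCA cycle. Hepatocytes run the pathway in both directions and use their own isoforms for several steps, such as the transporter SLC2A2 and the pyruvate kinase PKLR. Liver cancer cells often lose these liver isoforms and keep the widely expressed ones, such as HK2, PKM and LDHA.

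Values are TPM, a level corrected for transcript length and scaled to the same total in each library, so that levels of different genes can be compared. TPM hold no sequencing depth, which is therefore unknown for these values. Groups were compared by limma's moderated test on log2(TPM + 1), and a fold change on this scale understates the change of genes with low levels. A gene was tested where at least 3 libraries reached 1 TPM, which left 14394 genes, and p-values were adjusted by Benjamini-Hochberg over all of them. The labels do not state that the replicates were separate cultures, and the methods say only in general terms that experiments were repeated, so the p-values measure only the spread between these libraries, which may be technical. FAM111B had 7.84, 8.29 and 7.99 TPM in the control libraries and 0.96, 1.13 and 0.84 TPM in the shFAM111B libraries (log2 fold change -2.20, SE 0.113, limma adjusted p 6.09e-06).

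The libraries differed in composition as well as in single genes. Genes of the mitochondrial chromosome took 196140 to 201464 TPM of the control libraries and 73237 to 78883 TPM of the shFAM111B libraries, and small RNAs without a poly(A) tail took 1084 to 3558 and 4221 to 53448 TPM. The median tested gene had a log2 fold change of -0.36. It lay at 0.011 after median-of-ratios scaling, at -0.030 after quantile normalization and at -0.50 after TPM were rescaled without the mitochondrial and small RNA genes. Changes that passed the test are therefore set below against the median gene or the other scalings, and "under all 4 scalings" means an adjusted p under 0.05 in 1 direction in each of them. Markers of hepatocytes and HCC lines, kept as 1 list, were abundant in all 6 libraries but differed between the groups. Their 11 genes summed to 32793 to 33074 TPM in control and 50054 to 56914 TPM in shFAM111B libraries. Of the 11, 5 were called higher and 6 lower, and the direction of SERPINA1 differed between scalings. Most of the rise of the sum came from AFP, which had 7045 to 7411 TPM in control libraries and 21853 to 25038 TPM in shFAM111B libraries. APOA1 had 3154 to 3380 and 6055 to 7893 TPM. ALB had 6419 to 6492 TPM in control libraries and 3988 to 4356 TPM in shFAM111B libraries, APOB 230.2 to 245 and 45.7 to 51.5 TPM, and HNF4A, a hepatocyte transcription factor, 95.7 to 99.6 and 38.5 to 42.98 TPM. Of the other marker lists, LYZ reached 259 to 317 TPM, CD68 15.0 to 23.4 TPM and COL1A2 5.39 to 11.96 TPM, while HBB and KDR were listed at 0 in every library, and the part of any marker list in the results below, among them the liver isoforms SLC2A2, PKLR and FBP1, was not tested. In these bulk libraries, fewer cells of a type and less RNA per cell cannot be told apart.

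Of the 49 genes, 43 passed the filter on low values. At an adjusted p under 0.05, 11 were higher and 21 lower in shFAM111B cells, beside 21.1% and 50.9% of all tested genes, so that the share of called members (25.6% higher and 48.8% lower) was near the background. None of them was at least 2-fold higher with P under 0.05 and 6 (14.0%) were at least 2-fold lower, SLC2A2, SLC16A1, PFKFB3, PKLR, DLAT and CS, beside 6.82% and 23.7% of all tested genes. The 3 control and 3 shFAM111B values did not overlap for 35 members (81.4%), beside 75.2% of all tested genes. The median change of the members was -0.20, against -0.36 for all tested genes. The shares under all 4 scalings were again near the background, 7 members higher (16.3%, beside 17.1%) and 16 lower (37.2%, beside 33.6%). Within several steps and complexes an isoform or subunit rose while its partner fell, as the groups of genes below show. How often any 2 tested genes go opposite ways was not counted, so these pairs are given as a description.

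**Figure D1:**
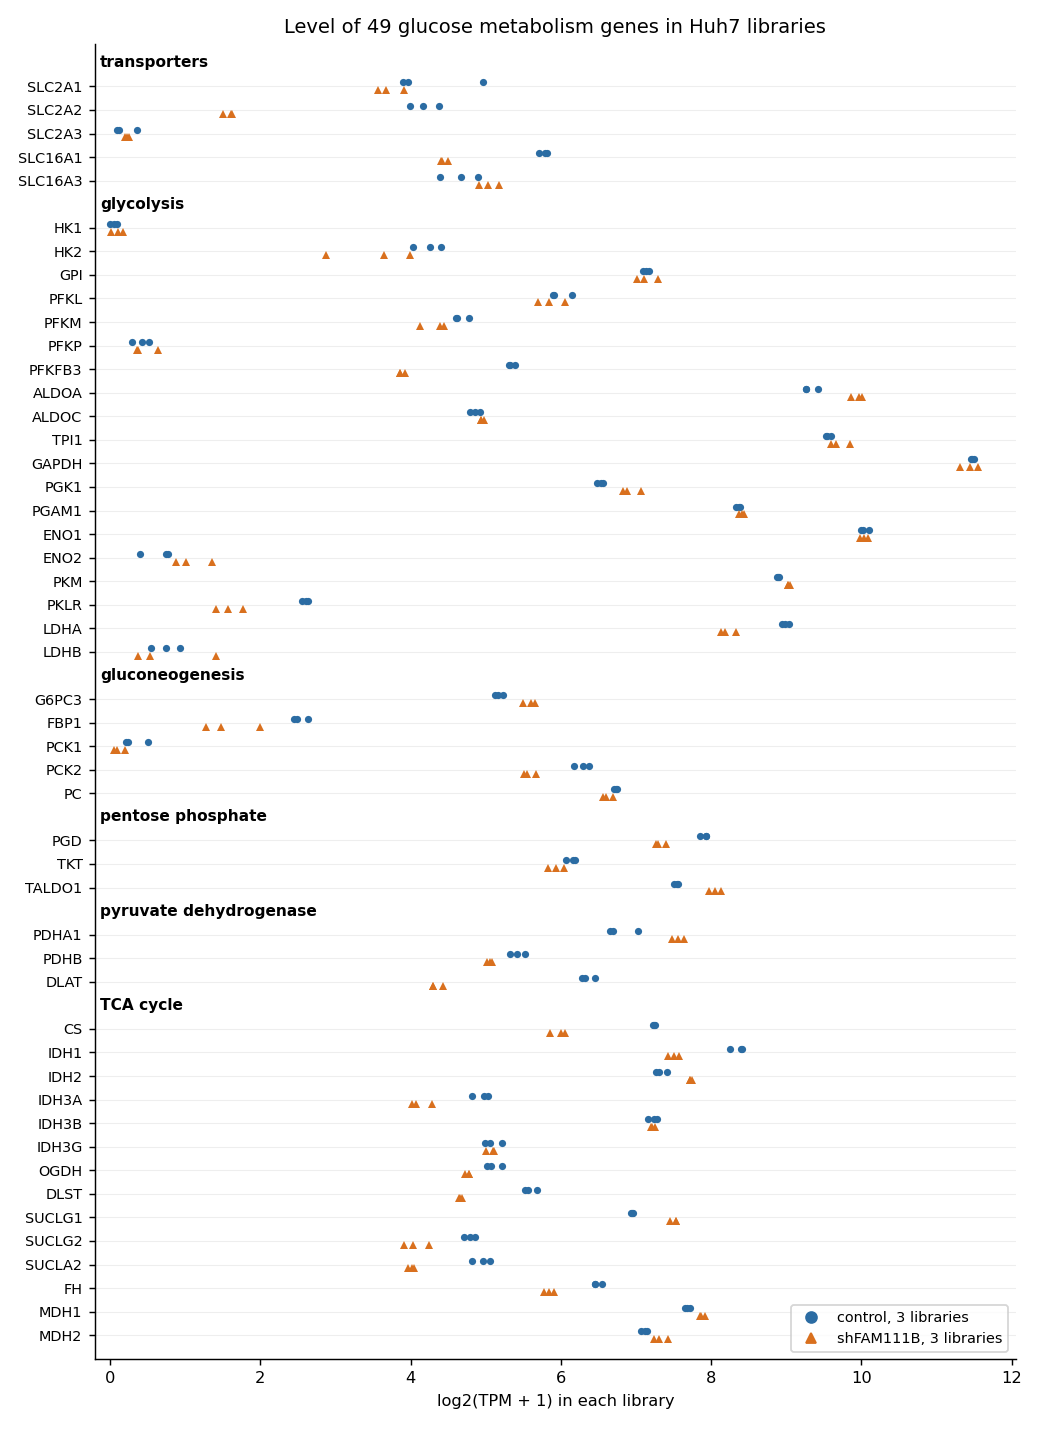
Level of each of the 49 genes in each Huh7 library, by role, as log2(TPM + 1); circles are the 3 control libraries and triangles the 3 shFAM111B libraries. GAPDH, ENO1 and TPI1 had the highest levels, 6 genes lay near 0, and the groups of SLC2A2, DLAT and PFKFB3 lay far apart.

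Among the transporters, the liver glucose transporter SLC2A2 and the lactate and pyruvate carrier SLC16A1 fell. SLC2A2 (ENSG00000163581, GRCh38 chromosome 3, 170996348 to 171026750, minus strand) is the high-capacity glucose transporter of hepatocytes. It had 19.8, 16.9 and 14.9 TPM in the control libraries and 2.06, 1.82 and 2.07 TPM in the shFAM111B libraries. The lowest control library lay far above every shFAM111B library, and the log2 fold change of -2.60 (SE 0.125, limma adjusted p 4.79e-06) was -2.24 relative to the median gene and the largest fall among the members. The 11 markers of hepatocytes and HCC lines were split in the same libraries, with 5 called higher and 6 lower, as given above. AFP and GPC3 were among the 5 called higher. SLC2A1, the glucose transporter of most growing cells, had 13.9, 14.7 and 30.3 TPM in the control libraries and 14.1, 11.8 and 10.8 TPM in the shFAM111B libraries. Control replicate 3 stood apart, the groups overlapped, and the change of -0.56 (SE 0.282, limma adjusted p 0.113) did not pass the test, was -0.22 without that library and passed after rescaling (-0.71, adjusted p 0.0496). SLC2A3, the high-affinity transporter of neurons and many tumours, lay between 0.06 and 0.28 TPM and was not tested. In shFAM111B cells the summed level of SLC2A1 and SLC2A2 was 14.2 ± 1.70 TPM (SD, n = 3), against 36.8 ± 7.30 TPM in control cells.

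SLC16A1 (chromosome 1, 112911847 to 112957013, minus strand) encodes MCT1, which moves lactate and pyruvate in either direction with a proton. Its levels were 55.1, 51.1 and 54.4 TPM in control libraries and 20.4, 21.5 and 20.3 TPM in shFAM111B libraries. Every control library lay above every shFAM111B library, with a log2 fold change of -1.33 (SE 0.0595, limma adjusted p 4.11e-06) and a range from -0.91 to -1.48 over the 4 scalings. SLC16A3 encodes MCT4, the exporter of lactate in glycolytic cells, and had 20.0, 24.4 and 28.7 TPM against 29.1, 31.8 and 35.0 TPM. The groups were adjacent but did not overlap, and the change of 0.39 (SE 0.135, limma adjusted p 0.0348) was 0.75 relative to the median gene. The SLC16A3 call was lost without control replicate 1 (limma adjusted p 0.0850), control replicate 2 (0.0755), shFAM111B replicate 2 (0.0727) or shFAM111B replicate 3 (0.0939), and after rescaling (0.115). SLC16A3 also shares 482 exon bases with CSNK1D on the other strand, which fell from a mean of 105.9 to 63.9 TPM, and the strand setting of the counting is not given in the sources used here.

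Glycolysis was the most abundant part, with a summed level of 7016 ± 136 TPM in control cells and 7208 ± 385 TPM in shFAM111B cells (SD, n = 3), a log2 ratio of 0.039 that became -0.11 after rescaling. GAPDH alone made up 39.6% of it. Of 15 tested genes, 3 were called higher (ALDOA, PGK1 and PKM, the last of which turned to -0.26 under quantile normalization and to -0.0058 after rescaling) and 5 lower (HK2, PFKM, PFKFB3, PKLR and LDHA, of which PFKM turned to 0.070 and 0.13 under median-of-ratios scaling and quantile normalization). The largest falls on the deposited scale were those of the regulator PFKFB3 and of PKLR and LDHA at the end of the pathway.

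Hexokinase traps glucose by phosphorylation. HK2, the hexokinase of many tumours, had 20.2, 18.2 and 15.4 TPM in control libraries and 6.34, 14.95 and 11.49 TPM in shFAM111B libraries. The highest shFAM111B library lay just under the lowest control library, and the change of -0.73 (SE 0.274, limma adjusted p 0.0454) was lost without any single library other than shFAM111B replicate 2, with adjusted p from 0.0551 to 0.128 and changes from -0.98 to -0.42 over the libraries left out. The HK2 call was also lost under median-of-ratios scaling (-0.33, limma adjusted p 0.317) and quantile normalization (-0.22, 0.477). HK1 lay between 0 and 0.13 TPM and was not tested. GPI, which makes fructose phosphate, had 135 to 143 TPM in control and 128 to 156 TPM in shFAM111B libraries, with overlapping groups and a change of 0.0042 that turned negative under quantile normalization and rescaling.

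Phosphofructokinase commits the sugar to glycolysis, and PFKFB3 makes the fructose bisphosphate signal that activates it. PFKFB3 (chromosome 10, 6144934 to 6254644, plus strand) had 40.9, 39.1 and 38.8 TPM in control libraries and 13.5, 14.2 and 13.5 TPM in shFAM111B libraries. The spread within each group was small and the groups lay far apart (log2 fold change -1.46, SE 0.0609, limma adjusted p 3.49e-06, -1.10 relative to the median gene). The enzyme itself moved less. PFKL, the liver isoform, had 58.6, 58.8 and 70.1 TPM against 56.6, 50.6 and 65.6 TPM, with overlapping groups and a change of -0.12 that turned to 0.31 under median-of-ratios scaling. PFKM, the muscle isoform, had 23.2, 26.5 and 23.6 TPM against 19.9, 20.8 and 16.4 TPM, and its fall of 0.35 (limma adjusted p 0.0204) equalled the shift of the median gene, turned to 0.070 under median-of-ratios scaling and was lost without control replicate 2 (adjusted p 0.0715). PFKP lay between 0.22 and 0.56 TPM and was not tested.

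Aldolase splits the hexose. ALDOA (chromosome 16, 30064164 to 30070457, plus strand), the widely expressed isoform, had 614, 615 and 683 TPM in control libraries and 1002, 929 and 1029 TPM in shFAM111B libraries. All shFAM111B libraries were above all control libraries, with a log2 fold change of 0.63 (SE 0.0618, limma adjusted p 8.75e-05) that kept its direction under all 4 scalings, from 0.19 under quantile normalization to 1.06 under median-of-ratios scaling. AC093512.2 shares 1657 exon bases with ALDOA on the same strand and had a mean of 17.0 TPM, so reads from the shared bases could be assigned to either. ALDOC, the brain isoform, had 26.6, 27.9 and 29.3 TPM against 29.6, 30.5 and 29.7 TPM. Its groups did not overlap, but the change of 0.097 did not pass the test and turned to -0.046 after rescaling.

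Of the enzymes that act on the triose sugars, PGK1, which makes ATP, was the member that rose. It had 91.3, 88.6 and 93.4 TPM in control libraries and 117, 112 and 133 TPM in shFAM111B libraries, a log2 fold change of 0.40 (SE 0.0706, limma adjusted p 0.00175) that held under all 4 scalings. GAPDH, the NAD-linked dehydrogenase of the pathway and a usual reference gene, had 2821, 2839 and 2903 TPM against 2785, 2556 and 3004 TPM. Its groups overlapped, and its change of -0.040 lay 0.32 above the median gene and ranged from -0.32 under quantile normalization to 0.39 under median-of-ratios scaling. TPI1 (736 to 774 TPM against 776 to 925 TPM), PGAM1 (321 to 333 against 331 to 345 TPM) and ENO1 (1020 to 1094 against 1014 to 1085 TPM) did not pass the test, and the direction of each differed between scalings. ENO2, the neuronal enolase, had 0.68, 0.32 and 0.70 TPM against 1.01, 0.83 and 1.55 TPM, below the filter.

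At pyruvate kinase, the last step of glycolysis, the ratio of the liver isoform PKLR to the common isoform PKM was lower in every shFAM111B library. PKLR had 5.10, 5.20 and 4.86 TPM in control libraries and 1.66, 2.42 and 1.97 TPM in shFAM111B libraries, with groups that did not overlap and a log2 fold change of -1.01 (SE 0.131, limma adjusted p 3.49e-04) that held under all 4 scalings. PKLR shares 556 exon bases with HCN3 on the other strand, which had a mean of 1.91 TPM. PKM had 468, 478 and 475 TPM against 519, 528 and 520 TPM. The groups of PKM did not overlap, and its change of 0.14 (SE 0.0356, limma adjusted p 0.00933) turned negative under quantile normalization and rescaling. Almost all pyruvate kinase mRNA was thus PKM in every library.

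LDHA (ENSG00000134333, chromosome 11, 18394388 to 18408425, plus strand) encodes the lactate dehydrogenase subunit that favours lactate formation. Its levels were 506, 527 and 493 TPM in control libraries and 291, 321 and 280.5 TPM in shFAM111B libraries. The lowest control library was far above the highest shFAM111B library, and the log2 fold change of -0.77 (SE 0.0599, limma adjusted p 2.88e-05) was -0.41 relative to the median gene and ranged from -0.34 under median-of-ratios scaling to -1.09 under quantile normalization. LDHB, the subunit of heart and other oxidative tissues, had 0.46, 0.90 and 0.68 TPM against 0.29, 0.45 and 1.66 TPM and was not tested. At these levels nearly all lactate dehydrogenase mRNA was LDHA in both groups.

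The promoter of LDHA is printed here beside those of DLAT and PDHA1, which encode subunits of the complex that oxidises the same pyruvate inside the mitochondrion, because LDHA and DLAT fell while PDHA1 rose. Each is the window of 250 bases before an annotated transcription start in RefSeq (GRCh38.p14), 5′ to 3′, and capitals mark every match to ACGTG, the core of the hypoxia response element, on either strand.
LDHA, chr11:18394313-18394562, plus strand: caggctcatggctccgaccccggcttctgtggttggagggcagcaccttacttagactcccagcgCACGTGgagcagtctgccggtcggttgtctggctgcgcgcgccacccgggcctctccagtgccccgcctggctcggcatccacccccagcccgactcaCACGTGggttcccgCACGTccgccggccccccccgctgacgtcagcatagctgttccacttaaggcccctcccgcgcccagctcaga
DLAT, chr11:112025158-112025407, plus strand: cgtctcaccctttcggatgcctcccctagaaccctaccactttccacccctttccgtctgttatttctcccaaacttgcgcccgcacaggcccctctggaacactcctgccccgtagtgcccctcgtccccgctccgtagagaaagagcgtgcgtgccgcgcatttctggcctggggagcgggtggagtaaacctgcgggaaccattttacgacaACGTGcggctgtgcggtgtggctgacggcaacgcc
PDHA1, chrX:19343677-19343926, plus strand: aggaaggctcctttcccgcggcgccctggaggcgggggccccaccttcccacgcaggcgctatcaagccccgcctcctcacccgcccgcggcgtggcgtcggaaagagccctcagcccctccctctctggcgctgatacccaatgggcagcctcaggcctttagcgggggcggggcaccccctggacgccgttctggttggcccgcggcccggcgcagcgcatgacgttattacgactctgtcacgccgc

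The LDHA window held matches at 3 places, and the first 2 of them are the palindrome CACGTG (an E-box), which contains ACGTG on both strands. LDHA has a second annotated start, whose window held none. The DLAT window held 1 match and the PDHA1 window none. ACGTG was found on either strand in 18.5% of the 35116 RefSeq windows of this length and in 26 of the 77 windows (33.8%) of the 45 members that have one, and 21 of these members had a match in at least 1 window. CACGTG was in 6.34% of all windows and in 14.3% of the members' windows, and GCGTG, the other common form of the response element core, was in 32.2% and 32.5%. Genes that rose in shFAM111B cells had matches as well as genes that fell, among them ALDOA, PGK1 and G6PC3. A match of letters is a description and shows no binding.

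Gluconeogenesis was represented by 4 tested genes, with a summed level of 222 ± 5.86 TPM in control cells and 193 ± 8.28 TPM in shFAM111B cells (SD, n = 3). FBP1 and PCK2 fell and G6PC3 rose under all 4 scalings. FBP1, the fructose bisphosphatase of liver, had 4.46, 5.18 and 4.63 TPM in control libraries and 1.79, 1.42 and 2.99 TPM in shFAM111B libraries. The groups did not overlap, though shFAM111B replicate 3 lay closer to the controls than the other two (log2 fold change -0.94, SE 0.198, limma adjusted p 0.00403). PCK2, the mitochondrial phosphoenolpyruvate carboxykinase, had 71.0, 81.6 and 77.6 TPM against 49.8, 44.7 and 45.7 TPM, with a log2 fold change of -0.70 (SE 0.0713, limma adjusted p 1.03e-04). PCK1, the cytosolic form that is induced in fasting liver, lay at 0.16, 0.18 and 0.42 TPM against 0.04, 0.06 and 0.15 TPM, so that nearly all carboxykinase mRNA was PCK2.

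G6PC3 is the widely expressed glucose phosphatase of the endoplasmic reticulum. It had 33.9, 36.5 and 34.9 TPM in control libraries and 49.5, 44.2 and 47.6 TPM in shFAM111B libraries, all above the controls (log2 fold change 0.41, SE 0.0643, limma adjusted p 8.97e-04, 0.78 relative to the median gene). PC, pyruvate carboxylase, which refills oxaloacetate, was the most abundant gene of this arm, with 106, 103 and 106 TPM against 95.8, 93.1 and 102 TPM. Its groups did not overlap, but the change of -0.11 (limma adjusted p 0.0817) missed the test and turned to 0.32 under median-of-ratios scaling.

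In the pentose phosphate pathway, which makes NADPH and ribose, an oxidative enzyme fell and a nonoxidative one rose, and the summed level of the 3 genes was 493 ± 8.27 TPM in control cells and 483 ± 5.28 TPM in shFAM111B cells (SD, n = 3). PGD, the oxidative phosphogluconate dehydrogenase, had 242, 230 and 242 TPM in control libraries and 155, 168 and 153 TPM in shFAM111B libraries. The groups lay far apart, with a log2 fold change of -0.59 (SE 0.0518, limma adjusted p 5.23e-05) and a range from -0.15 under median-of-ratios scaling to -0.73 after rescaling. TALDO1, transaldolase of the nonoxidative branch, had 186, 182 and 187 TPM against 264, 250 and 280 TPM, a log2 fold change of 0.51 (SE 0.0517, limma adjusted p 9.94e-05) that held under all 4 scalings. TKT, transketolase, had 66.2, 71.8 and 70.4 TPM against 64.9, 60.0 and 55.8 TPM. Its change of -0.20 (limma adjusted p 0.0320) turned to 0.22 under median-of-ratios scaling and its call was lost without control replicate 2 or 3 or shFAM111B replicate 2 or 3, with adjusted p from 0.0666 to 0.102.

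**Figure D2:**
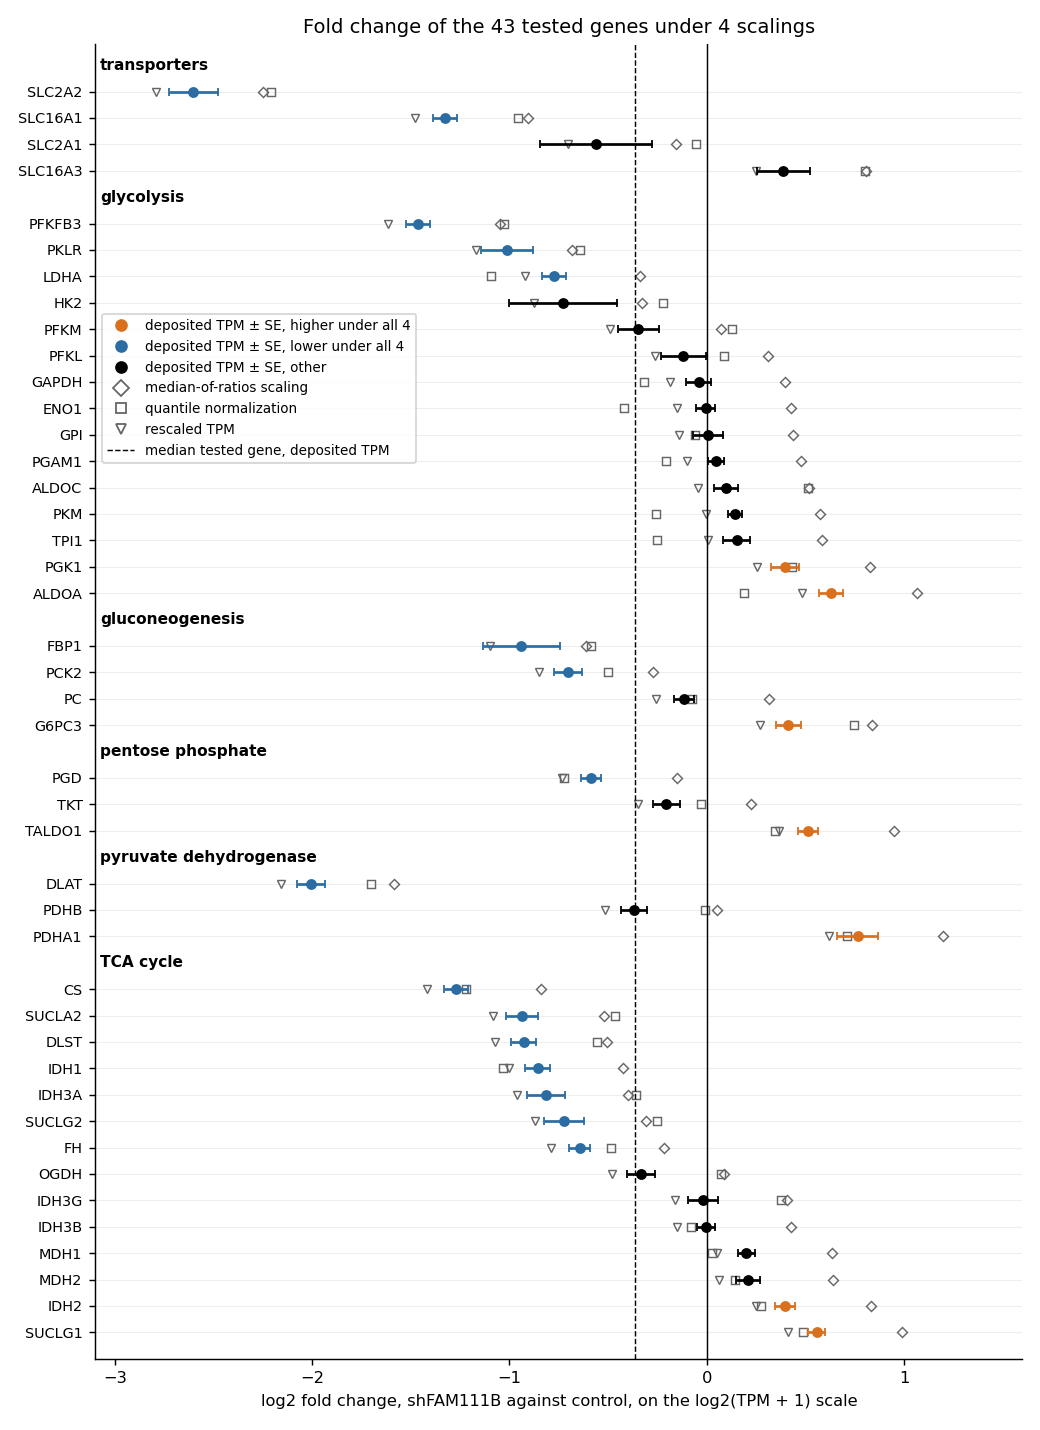
Log2 fold change (shFAM111B against control, log2(TPM + 1) scale) of the 43 tested genes by role; filled points with bars are the deposited TPM ± SE, open symbols the 3 other scalings, and the dashed line the median tested gene at -0.36. The 7 orange genes lie above 0 and the 16 blue genes below 0 under all 4 scalings, while 15 of the black ones have points on both sides of 0.

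The subunits of the pyruvate dehydrogenase complex ranged, on the deposited scale, from the largest rise among the members, PDHA1, to the second largest fall, DLAT. Under quantile normalization SLC16A3 (0.80) and G6PC3 (0.74) had larger rises than PDHA1 (0.71). PDHA1 (ENSG00000131828, chromosome X, 19343893 to 19361705, plus strand) is the catalytic alpha subunit that phosphorylation switches off. It had 99.8, 103 and 130 TPM in control libraries and 188, 178 and 198 TPM in shFAM111B libraries. All shFAM111B libraries lay above control replicate 3, the highest control, with a log2 fold change of 0.76 (SE 0.104, limma adjusted p 4.50e-04), or 1.13 relative to the median gene. PDHB, the beta subunit of the same enzyme, had 41.8, 45.1 and 39.0 TPM against 32.4, 32.8 and 31.5 TPM. Its groups did not overlap, but the change of -0.37 (SE 0.0676, limma adjusted p 0.00205) was that of the median gene and turned to 0.054 under median-of-ratios scaling.

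DLAT (ENSG00000150768, chromosome 11, 112024814 to 112064390, plus strand) is the acetyltransferase that forms the core of the complex. It had 86.8, 76.7 and 78.7 TPM in control libraries and 18.8, 20.6 and 18.7 TPM in shFAM111B libraries. The lowest control library was far above the highest shFAM111B library (log2 fold change -2.01, SE 0.0717, limma adjusted p 2.63e-06), and the fall ranged from -1.58 to -2.16 over the 4 scalings. Since PDHA1 rose while DLAT fell, the summed level of the 3 subunits hardly moved, 233 ± 12.3 TPM in control and 239 ± 8.38 TPM in shFAM111B cells (SD, n = 3), a log2 ratio of 0.036 that became -0.11 after rescaling. PDHA1 shares 956 exon bases with MAP3K15 on the other strand, which had a mean of 1.26 TPM, and DLAT shares 212 with PIH1D2, which had 0.88 TPM.

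Among the 14 TCA cycle genes, all tested, 8 were called lower (57.1%) and 4 higher (28.6%), near the 50.9% and 21.1% of all tested genes, and 7 fell and 2 rose under all 4 scalings. Their median change was -0.49, and their summed level was 1539 ± 12.3 TPM in control cells and 1363 ± 4.10 TPM in shFAM111B cells (SD, n = 3). The log2 ratio of these sums was -0.18, beside -0.36 for the median gene. The sum includes the cytosolic enzymes IDH1 (mean of 327 TPM in control and 180 TPM in shFAM111B libraries) and MDH1 (204 and 235 TPM). Most of the difference between the sums came from IDH1. CS, citrate synthase, which admits acetyl-CoA to the cycle, fell. Its levels were 152, 149 and 150 TPM in control libraries and 62.8, 65.5 and 57.1 TPM in shFAM111B libraries (log2 fold change -1.27, SE 0.0597, limma adjusted p 4.57e-06), with a range from -0.84 to -1.42 over the 4 scalings. This value is uncertain, because CS shares 220 exon bases on the same strand with AC073896.1, which had 65.5, 71.6 and 103 TPM in control libraries and 109, 121 and 108 TPM in shFAM111B libraries, so that estimated reads could be split between them. The sum of both was 217, 221 and 253 TPM against 172, 186 and 166 TPM, without overlap, at a log2 ratio of -0.40. This was close to the median gene at -0.36, and so was the ratio after rescaling (-0.54, beside -0.50 for the median gene). TPM are corrected for the length of each gene, so their sum does not recover reads split between the 2 genes. The sum therefore does not show how far CS itself fell. In control replicate 3 AC073896.1 stood at 103 TPM while CS stayed at 150 TPM, and a split of reads was not tested.

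Isocitrate dehydrogenase changed by isoform. IDH1, the cytosolic NADP-linked enzyme, had 339, 338 and 304 TPM in control libraries and 180, 189 and 171 TPM in shFAM111B libraries, with a log2 fold change of -0.86 (SE 0.0620, limma adjusted p 2.14e-05). IDH2, its mitochondrial counterpart, had 153, 157 and 169 TPM against 213, 210 and 209 TPM, with a log2 fold change of 0.40 (SE 0.04997, limma adjusted p 3.04e-04). Both held under all 4 scalings, and their order reversed, with IDH1 the more abundant in every control library and IDH2 in every shFAM111B library.

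Of the NAD-linked enzyme that serves the cycle itself, the catalytic subunit IDH3A fell from 31.5, 30.5 and 27.3 TPM to 15.2, 15.7 and 18.6 TPM (log2 fold change -0.82, SE 0.0970, limma adjusted p 2.28e-04), with a range from -0.36 to -0.96 over the 4 scalings. The partner subunits IDH3B (143 to 154 TPM in control, 146 to 152 TPM in shFAM111B libraries) and IDH3G (30.9 to 36.3 against 31.0 to 33.7 TPM) had overlapping groups, changes of -0.0040 and -0.017, and a direction that differed between scalings. IDH3G shares 278 exon bases on the other strand with SSR4, which had means of 149 and 338 TPM.

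Oxoglutarate dehydrogenase is built like pyruvate dehydrogenase, and its core subunit DLST fell as DLAT did. DLST had 46.5, 44.8 and 50.2 TPM in control libraries and 24.0, 24.2 and 24.7 TPM in shFAM111B libraries (log2 fold change -0.93, SE 0.0625, limma adjusted p 1.60e-05) and from -0.51 to -1.08 over the 4 scalings, and its shFAM111B libraries were nearly equal. OGDH, the catalytic subunit, had 32.5, 31.3 and 36.2 TPM against 25.4, 26.5 and 26.5 TPM. The groups of OGDH did not overlap, but its change of -0.34 (limma adjusted p 0.00410) was that of the median gene and turned to 0.085 under median-of-ratios scaling.

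Succinyl-CoA ligase pairs the shared subunit SUCLG1 with SUCLG2, which makes GTP, or SUCLA2, which makes ATP. SUCLG1 rose from 124, 121 and 123 TPM to 183, 174 and 185 TPM (log2 fold change 0.56, SE 0.0437, limma adjusted p 3.05e-05). SUCLG2 fell from 28.1, 26.6 and 25.1 TPM to 14.0, 15.4 and 18.0 TPM (-0.72, SE 0.101, limma adjusted p 5.29e-04), although under quantile normalization its adjusted p of 0.04995 was just inside the threshold. SUCLA2 fell from 27.2, 32.3 and 30.1 TPM to 15.4, 15.2 and 14.6 TPM (-0.94, SE 0.0790, limma adjusted p 4.23e-05). No control library overlapped a shFAM111B library for any of the 3 genes. Over the 4 scalings the changes ranged from 0.41 to 0.99 for SUCLG1, from -0.25 to -0.87 for SUCLG2 and from -0.47 to -1.09 for SUCLA2.

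FH, fumarase, had 87.1, 92.2 and 86.8 TPM in control libraries and 56.5, 58.8 and 53.8 TPM in shFAM111B libraries, a log2 fold change of -0.65 (SE 0.0550, limma adjusted p 4.47e-05) that held under all 4 scalings. The malate dehydrogenases MDH1 (cytosol) and MDH2 (mitochondrion) had small changes of 0.20 and 0.21. MDH1 had 209, 205 and 199 TPM against 231, 242 and 233 TPM, and MDH2 had 133, 138 and 141 TPM against 157, 150 and 171 TPM. Neither group pair overlapped and both kept a positive sign under all 4 scalings, but the call was lost after rescaling (limma adjusted p 0.407 and 0.233), for MDH1 under quantile normalization (0.608) and for MDH2 without control replicate 1 (0.0570).

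A ratio of 2 genes within a library does not depend on a scaling by 1 factor per library, and 8 of 14 paralogue pairs had both genes at 1 TPM or more in every library. For 5 of these the 3 control and 3 shFAM111B ratios did not overlap, each with an exact two-sided permutation p of 0.1, the smallest that 3 against 3 can give, and an adjusted p of 0.16 over the 8 pairs. The ratio of SLC2A2 to SLC2A1 was 1.43, 1.15 and 0.492 in control libraries and 0.147, 0.155 and 0.191 in shFAM111B libraries, a log2 difference of -2.52 ± 0.484 (SE). The ratio of SLC16A3 to SLC16A1 went the other way, from 0.363, 0.478 and 0.528 to 1.43, 1.48 and 1.73 (1.77 ± 0.183), so that SLC16A3 became the more abundant of the pair. The ratio of PKLR to PKM was 0.0109, 0.0109 and 0.0102 against 0.00320, 0.00458 and 0.00379 (-1.48 ± 0.153).

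Quantile normalization is not a single factor per library, and under it ALDOC changed by 0.52 and ALDOA by 0.19, and PFKL by 0.088 and PFKM by 0.13, so that the order of the changes turned in both pairs. IDH1 to IDH2 was 2.22, 2.15 and 1.80 against 0.845, 0.900 and 0.819 (log2 difference -1.26 ± 0.103, SE), and ALDOC to ALDOA was 0.0433, 0.0454 and 0.0428 against 0.0295, 0.0329 and 0.0288 (-0.53 ± 0.0638). The 3 remaining pairs overlapped. They were PFKL to PFKM (0.24 ± 0.245, exact permutation p 0.5), SUCLA2 to SUCLG2 (-0.22 ± 0.166, exact permutation p 0.3) and MDH1 to MDH2 (-0.010 ± 0.0841, exact permutation p 0.9). Since no pair of 3 against 3 could pass the threshold, these p-values do not separate the pairs that overlapped from those that did not.

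Ratios of subunits of 1 complex were chosen after their values had been seen and are given as a description without a test. PDHA1 to DLAT was 1.15, 1.34 and 1.65 in control libraries and 10.0, 8.64 and 10.6 in shFAM111B libraries, and PDHA1 to PDHB was 2.39, 2.28 and 3.33 against 5.79, 5.44 and 6.29. SUCLG1 to SUCLG2 was 4.4, 4.56 and 4.89 against 13.1, 11.3 and 10.3, and SUCLG1 to SUCLA2 was 4.54, 3.76 and 4.08 against 11.9, 11.47 and 12.6. OGDH to DLST was 0.699, 0.699 and 0.720 against 1.06, 1.10 and 1.07. At the pyruvate branch, LDHA to PDHA1 was 5.07, 5.12 and 3.80 against 1.55, 1.80 and 1.42. None of these ratios overlapped between the groups. The direction at the pyruvate branch depends on the subunit chosen. DLAT, of the same complex as PDHA1, fell more than LDHA (log2 fold change -2.01 against -0.77), so a ratio of LDHA to DLAT goes the other way.

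Fold change and transcript length were related across the whole table. Over 14263 tested genes with a length in GENCODE v29, Spearman's rho of the log2 fold change with the longest transcript was -0.46, and over the 43 tested members it was -0.25, both as descriptions across genes that share the same 6 libraries. The median change of all genes was 0.43 up to 1000 nt, 0.17 from 1000 to 2000 nt, -0.20 from 2000 to 3000 nt, -0.49 from 3000 to 4000 nt, -0.78 from 4000 to 8000 nt and -0.94 above. The 13 members of 4000 to 8000 nt had a median of -0.34, with 2 called higher and 8 lower. DLAT (4458 nt), SLC16A1 (4374 nt) and PFKFB3 (4524 nt) were in this class and lay well below its median, PDHB (4459 nt) and PGK1 (4887 nt) above it, and PDHA1 (3484 nt) rose among genes whose median fell. The longest annotated transcript need not be the one expressed, so a member can stand in the wrong class. The fit below rests on the same lengths. After a loess fit had taken out the trend with transcript length and level, all 7 members that rose under all 4 scalings and 15 of the 16 that fell still passed, and IDH3A did not (-0.14, limma adjusted p 0.235). Its partner subunits IDH3B and IDH3G then had changes of -0.17 (limma adjusted p 0.0160) and 0.014 (0.889), so that IDH3A no longer fell more than IDH3B.

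The other genes of these pathways were read from 7 lists that hold no member. Of 123 listed genes 90 were tested, and 10 were higher (11.1%) and 66 lower (73.3%), beside 21.1% and 50.9% of all tested genes. None was at least 2-fold higher and 31 were at least 2-fold lower, beside 6.82% and 23.7%. Under all 4 scalings 5 were higher and 45 lower, beside 17.1% and 33.6%. The median of the 90 genes was -0.76, against -0.36 for all tested genes, and no test was made of the lists. The trend of fold change with transcript length was not taken out for these genes. Its part in these shares and in this median is therefore unknown.

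Among other glycolysis genes, GCKR, the liver regulator of glucokinase, fell from a mean of 15.4 ± 0.915 to 3.10 ± 0.492 TPM (SD, n = 3), PGM2, a phosphopentomutase, fell from 15.7 ± 1.04 to 8.85 ± 1.65 TPM, and ENO3, the muscle enolase, rose from 18.7 ± 2.92 to 33.8 ± 2.49 TPM. Of the transport genes, SLC37A4, which carries glucose phosphate into the endoplasmic reticulum, fell from 55.3 ± 3.63 to 24.9 ± 0.851 TPM and the hexose transporter SLC2A6 from 57.7 ± 5.55 to 21.6 ± 1.28 TPM, whereas MPC1, a subunit of the mitochondrial pyruvate carrier, rose from 89.0 ± 3.62 to 143 ± 6.81 TPM. H6PD, which runs the oxidative pentose phosphate steps inside the endoplasmic reticulum, fell from 13.2 ± 0.875 to 3.95 ± 0.419 TPM. PRPS1, which turns ribose phosphate into the nucleotide precursor PRPP, fell from 56.8 ± 1.72 to 28.3 ± 4.40 TPM. In glycogen metabolism, GYG1, the primer of its synthesis, fell from 49.2 ± 2.74 to 19.8 ± 1.65 TPM, the branching enzyme GBE1 from 9.68 ± 0.160 to 3.68 ± 0.461 TPM and the phosphorylase PYGB from 39.3 ± 1.97 to 24.1 ± 0.196 TPM. All of these held under all 4 scalings except PGM2, which kept its direction but was not called in each.

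The other subunits of the dehydrogenase complexes that were named by the rule fell, as DLAT and DLST did. DLD, the dihydrolipoamide dehydrogenase that both complexes share, fell from 119 ± 7.39 to 44.1 ± 4.01 TPM (SD, n = 3). PDHX, which anchors DLD to the pyruvate dehydrogenase core, fell from 24.7 ± 1.78 to 11.1 ± 1.63 TPM, and PDPR, a subunit of the phosphatase that reactivates PDHA1, fell from 16.2 ± 0.197 to 4.86 ± 0.171 TPM. Around the cycle, the malic enzyme ME1 fell from 39.9 ± 1.08 to 15.0 ± 0.894 TPM and the succinate dehydrogenase anchor SDHD from 91.1 ± 4.35 to 40.1 ± 1.58 TPM. The limma adjusted p of each of these 5 falls lay between 5.49e-06 and 1.07e-04, and each held under all 4 scalings. Outside the naming rule, the pyruvate dehydrogenase kinase PDK1 also fell, from 6 ± 0.594 to 1.97 ± 0.297 TPM. The phosphatase genes PDP1 and PDP2 fell as well, and all 3 falls held under all 4 scalings. PDK2 was not called, and PDK3 and PDK4 were below the filter. Phosphorylation cannot be read from these mRNA levels.

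Regulators of glucose metabolism formed the list with the most calls, 19 of 21 tested genes lower and 13 of them at least 2-fold, beside 50.9% and 23.7% of all tested genes. Transcript length was not taken into account in this comparison either. PRKAA1, a catalytic subunit of the energy sensor AMPK, fell from 85.3 ± 12.3 to 15.3 ± 0.675 TPM (SD, n = 3). MLXIPL, which encodes the glucose-responsive factor ChREBP that drives PKLR, fell from 15.9 ± 1.83 to 2.86 ± 0.0231 TPM, and TXNIP, a target of ChREBP that restrains glucose uptake, from 15.7 ± 3.01 to 3 ± 0.515 TPM. HIF1A, the hypoxia factor whose response element holds the letters marked in the LDHA promoter, was singled out after its values were seen and fell from 143 ± 6.29 to 34.9 ± 4.21 TPM (limma adjusted p 4.11e-06). These 4 falls held under all 4 scalings. The fall was not particular to HIF1A. EPAS1, ARNT and MYC of the same list were also lower under all 4 scalings, with log2 fold changes of -1.50, -0.90 and -1.75. Whether these changes bear on the members was not tested.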

How the data were processed

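RNA was sequenced from Huh7 cells after poly(A) selection, in 3 control and 3 shFAM111B libraries. The labels name a stranded mRNA kit and the paper a TruSeq kit. The authors deposited 1 table of TPM per gene and library. RSEM, DESeq2 and hg38 are named in the submitters' processing notes without a role or version, and the aligner, annotation and strand setting are not given in the sources used here. The table also holds the authors' group means, fold change, its log2, p-value and adjusted p-value, none of which was used. TPM keep no depth, so no count test, interval or floor was possible, and the depth per sample is unknown.

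Genes that reached 1 TPM in 3 or more libraries were tested on log2(TPM + 1) with limma 3.58.1 in R 4.3.3 (lmFit, eBayes with trend, no covariates), with p-values adjusted by Benjamini-Hochberg over 14394 genes. The test was checked on simulated data. The study's rule, at least 2-fold and P under 0.05, was counted beside an adjusted p under 0.05. Ratios used an exact permutation test (scipy 1.17.1). Gene positions and lengths come from GENCODE v29 (GRCh38), which lists 58420 of the 60666 genes, and promoters from RefSeq (GRCh38.p14); SLC2A3, SLC16A1, PCK1 and OGDH have no entry there. Of the members, 154 pseudogene copies are listed in the table, none above 1.69 TPM in a library.

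The members and lists were chosen with earlier results of these data known. Values in every library are given for the 3 members of each role with the largest called change, the most abundant one and both genes of each pair, and up to 3 genes are named per wider list (mean of at least 5 TPM). Others are given where the text turns on them. Some genes that this rule would name are not reported here. Alternatives were no filter, a pseudocount of 0.1 (1 for ratios), median-of-ratios scaling, quantile normalization, rescaling without mitochondrial and small non-poly(A) RNA genes, a replicate block, each library left out, and a loess fit (span 0.75) of length and expression. The requirement of all 4 scalings at once was chosen after the values had been seen.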

Additional observations from a re-analysis of the deposited data

How the results depend on the processing

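The counts depended mainly on how the libraries were scaled. Of all tested genes, 5040 were higher under median-of-ratios scaling and 4675 under quantile normalization, with 1963 and 1694 at least 2-fold higher and 1840 and 1849 at least 2-fold lower. With the length and level trend taken out, 4696 were lower and 1307 at least 2-fold lower, and 4814 were lower under all 4 scalings at once. The share of higher genes among the adjusted calls was 29.4% as deposited, 49.4% under median-of-ratios scaling, 46.9% under quantile normalization, 23.8% after rescaling and 48.6% without the trend, and among 2-fold calls 22.3%, 51.6%, 47.8%, 16.0% and 51.2%. Of the members, 22 were higher under median-of-ratios scaling (2 at least 2-fold higher, 3 at least 2-fold lower), 7 after rescaling (10 at least 2-fold lower), 17 without the trend (2 at least 2-fold higher, 2 lower) and 7 under all 4 scalings.

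Under median-of-ratios scaling the log2 fold change turned positive for PFKL (0.31), PFKM (0.070), GAPDH (0.39), ENO1 (0.43), PC (0.32), TKT (0.22), PDHB (0.054), IDH3B (0.43), IDH3G (0.40) and OGDH (0.085), and for the medians of glycolysis (0.43), gluconeogenesis (0.021), the pentose phosphate genes (0.22) and pyruvate dehydrogenase (0.054). Quantile normalization reversed GPI (-0.060), PFKL (0.088), PFKM (0.13), TPI1 (-0.25), PGAM1 (-0.21), PKM (-0.26), IDH3G (0.38) and OGDH (0.071). Rescaling reversed GPI (-0.14), ALDOC (-0.046), PGAM1 (-0.10), PKM (-0.0058) and the summed levels of glycolysis (-0.11) and pyruvate dehydrogenase (-0.11). Without the trend, SLC2A1 (0.074), HK2 (0.18), PFKL (0.53), PFKM (0.25), TPI1 (-0.0052), PGAM1 (-0.085), PC (0.31), TKT (0.47), PDHB (0.26), IDH3G (0.014) and OGDH (0.31) reversed, as did the medians of glycolysis (0.18), the pentose phosphate genes (0.20) and pyruvate dehydrogenase (0.26). The cause was not tested.

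With 1 library left out, the log2 fold change crossed 0 for GPI (-0.075 to 0.066), GAPDH (-0.097 to 0.019), ENO1 (-0.031 to 0.023), IDH3B (-0.035 to 0.021), IDH3G (-0.064 to 0.047), the glycolysis median (-0.075 to 0.019) and the ratio of MDH1 to MDH2 (-0.075 to 0.050). Members higher numbered 9 to 11, lower 18 to 20 and at least 2-fold lower 5 to 7. Besides the lost calls given above, TPI1 was called higher without shFAM111B replicate 2 (limma adjusted p 0.0315) and PC lower without shFAM111B replicate 3 (0.0268). FAM111B stayed between -2.25 and -2.15. Without the filter, SLC16A3, HK2 and TKT lost their calls (limma adjusted p 0.0825, 0.113 and 0.0583). A pseudocount of 1 moved the ratio of PKLR to PKM to -1.15, and a pseudocount of 0.1 in the test changed no member's call at an adjusted p under 0.05, but 7 members were at least 2-fold lower, now with FBP1 (-1.23), and 4264 of all genes, against 3409.

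Replicate numbers did not pair the libraries: deviations from the group means correlated at 0.054, 0.035 and 0.091 for equal numbers, and shFAM111B replicate 2 correlated better with control replicate 1 (0.044). With a replicate block 3022 genes were higher and 7198 lower (996 and 3410 at least 2-fold), and 12 members were higher and 19 lower, HK2 and TKT losing their call (limma adjusted p 0.0580 and 0.0608) and TPI1 gaining one (0.0460).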
